A study of Sus scrofa with 6 samples.

Results

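The genes described here act in the cytoskeleton, synapses and ion channels of neurons. They were chosen as 10 listed symbols, and a gene was taken as measured where a row of the deposited count table carried an Ensembl pig identifier paired with that symbol and at least 10 counts in total. Of the 10 genes, 9 had such a row, out of 1780 rows in the table. These were MAP6 (ENSSSCG00000014860), FEZ1 (ENSSSCG00000015212), PLEKHB1 (ENSSSCG00000014827), AMPH (ENSSSCG00000024136), ADAM22 (ENSSSCG00000015297), ADORA1 (ENSSSCG00000021059), GRIA4 (ENSSSCG00000030565), GRIK4 (ENSSSCG00000015131) and CACNA2D1 (ENSSSCG00000015402). SCN3B, which encodes a beta subunit of voltage-gated sodium channels, matched no row and was not measured.

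RNA was sequenced from 6 whole pig embryos, 3 in each group, taken on embryonic day 21. Their strain was Landrace x Yorkshire x Duroc. Controls were labelled untreated, and their manner of conception is not described in the labels. Parthenotes were embryos made without sperm from oocytes stimulated by electric pulses, so both sets of their chromosomes are maternal, and they were carried by 2 surrogate gilts. The labels do not say which embryo came from which gilt, nor whether controls shared a dam, so the spread between libraries may hold less than the full spread between litters. Conception, handling, dam and group cannot be told apart.

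A neuron keeps its long processes in shape with microtubules and moves cargo along them with motor proteins and their adaptors. At the synapse, vesicles release transmitter after calcium enters through voltage-gated channels, their membrane is taken back by endocytosis, and receptors on the receiving cell open or signal in response. In an embryo of this stage the neural tube and ganglia hold the first differentiating neurons, and several of these genes are also used outside the nervous system. Expression in a whole embryo sums all of its cells, so a larger number of cells of a type and more RNA per cell cannot be told apart.

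The count table used here covered genes of chromosome 9. Within this table each library held 1193714 to 1484193 counts, which is not its full depth. A filter on low counts left 807 genes, which were tested. All 9 measured genes were among them, and their lowest count in any library was 147, so each passed at its level in either group. Values are given as CPM, counts per 1000000 counts of the tested genes after TMM scaling, a correction for differences in composition between libraries. One gene without a symbol took 20.8% of the table's counts in control 1 and 8.29% and 8.47% in control 2 and 3. In the parthenotes it took 15.4% to 19.1%. CPM values are not divided by transcript length, so levels are compared between groups for each gene and not between genes.

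The choice of the genes drew on earlier results of this same comparison, so the fold changes and calls below describe the genes and test nothing about them as a set. By edgeR's quasi-likelihood method, with p-values adjusted after Benjamini and Hochberg over the 807 genes, 4 of the 9 were called higher in parthenotes at an adjusted p under 0.05 and 0 lower, and at an unadjusted p under 0.05 it was 7 higher and 0 lower. Over all tested genes 1.61% were called higher, 3.59% lower and 5.20% in either direction, while 9.91% were higher at an unadjusted p under 0.05. DESeq2 and limma-voom called the same number of the 9 genes higher. All 3 parthenotes lay above all 3 controls for 6 of the 9 and below them for 0 of the 9, beside 13.8% and 14.3% of all tested genes. The log2 fold change of parthenote over control was above 0 for 8 of the 9, with a median of 0.47 and a range of -0.02 to 0.55, while over all tested genes the median was 0.02 and 52.4% were above 0. Just inside the threshold lay AMPH, at an adjusted p of 0.0283, and just outside it GRIA4, at 0.0904.

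**Figure D1:**
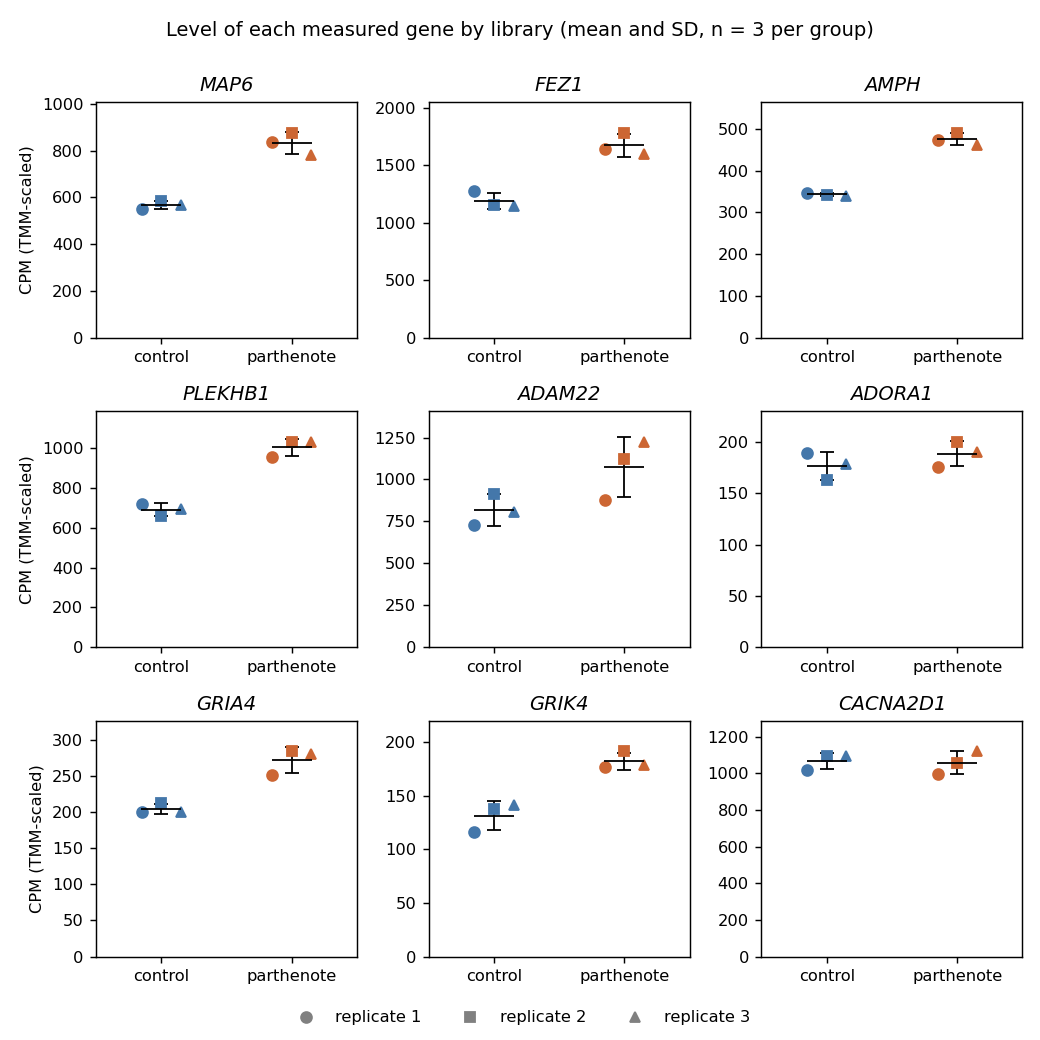
Level of each of the 9 measured genes in CPM after TMM scaling (vertical axis, from 0) in the 3 control and 3 parthenote libraries; the symbol shape gives the replicate number, and black lines give the mean and SD. The groups are apart for MAP6, FEZ1, AMPH, PLEKHB1, GRIA4 and GRIK4 and overlap for ADAM22, ADORA1 and CACNA2D1.

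Both measured genes of the microtubule cytoskeleton and axonal transport were higher in parthenotes. MAP6 encodes a protein that binds microtubules and protects them from disassembly. It stood at 552, 586 and 568 CPM in control 1, 2 and 3 and at 837, 878 and 784 CPM in parthenote 1, 2 and 3. The lowest parthenote was 1.34 times the highest control. The means were 569 ± 17.3 and 833 ± 47.0 CPM (SD, n = 3 each), a ratio of 1.47, and the 95% interval of the log2 fold change ran from 0.34 to 0.76. FEZ1 encodes an adaptor that links cargo to kinesin motors in axons. Its values were 1273, 1153 and 1147 CPM in the controls and 1637, 1784 and 1596 CPM in the parthenotes. Again the groups were apart, with the lowest parthenote 1.25 times the highest control. The ratio of the FEZ1 means was 1.40 and the 95% interval 0.30 to 0.68 on the log2 scale.

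PLEKHB1 encodes a membrane protein with a pleckstrin homology domain, known from photoreceptors and brain. It had 720, 658 and 695 CPM in the controls and 957, 1031 and 1030 CPM in the parthenotes. The lowest parthenote was 1.33 times the highest control, and the ratio of the means was 1.46, with a 95% interval of 0.35 to 0.73 on the log2 scale. PLEKHB1 passed the test under all 16 alternative settings that were run, at adjusted p-values from 5.05e-05 to 0.0427.

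Of the synaptic genes, AMPH was called higher and ADAM22 was not. AMPH encodes amphiphysin, which binds curved membrane and takes part in the endocytosis of synaptic vesicles. It had 347, 342 and 341 CPM in the controls and 473, 491 and 462 CPM in the parthenotes. No other of the 9 genes had controls so close together, and the lowest parthenote was 1.33 times the highest control. The 95% interval of its log2 fold change was 0.24 to 0.70.

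ADAM22 encodes a member of the ADAM family that lacks protease activity and serves as a synaptic receptor for the secreted protein LGI1. Its values were 726, 915 and 806 CPM in the controls and 875, 1122 and 1223 CPM in the parthenotes. Parthenote 1 lay below control 2, so the groups overlapped, and both libraries numbered 1 were the lowest of their group. The means were 815 ± 94.96 and 1073 ± 179 CPM (SD, n = 3 each). The difference of 0.40 ± 0.14 (SE) on the log2 scale had a 95% interval of 0.09 to 0.70 and an adjusted p of 0.142 in edgeR. When parthenote 1 was left out the difference was 0.52 and ADAM22 passed (edgeR adjusted p = 0.0409). It also passed when the replicate number was entered as a block, at 0.39 (edgeR adjusted p = 0.04998). Across the 16 alternatives its adjusted p ran from 0.0409 to 0.365.

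The 3 receptor genes had positive fold changes and none was called. GRIA4 encodes a subunit of AMPA receptors, which carry fast excitatory transmission by glutamate. It had 200, 212 and 200.1 CPM in the controls and 252, 284 and 281 CPM in the parthenotes. The groups did not overlap, with control counts of 254 to 270 and parthenote counts of 329 to 417. The log2 fold change of GRIA4 was 0.41 ± 0.12 (SE), with a 95% interval of 0.15 to 0.68.

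GRIK4 encodes a subunit of kainate receptors, another class of glutamate-gated channel. With 147, 175 and 187 counts in the controls and 231, 270 and 265 in the parthenotes, it had the fewest reads of the 9 genes. This came to 116, 137 and 141 CPM against 177, 191 and 178 CPM, again with no overlap. Its log2 fold change of 0.47 ± 0.14 (SE) was as large as that of AMPH (0.47 ± 0.10), but its interval was wider, 0.16 to 0.78, and its adjusted p in edgeR was 0.0946. GRIA4 and GRIK4 did not pass under any of the 16 alternatives, with adjusted p-values of 0.0555 to 0.251 and 0.0678 to 0.261.

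ADORA1 encodes the adenosine A1 receptor, which couples to inhibitory G proteins and dampens transmitter release, and which also acts in the heart. It had 189, 162 and 178 CPM in the controls and 176, 200 and 190 CPM in the parthenotes. The groups overlapped, and parthenote 1 lay below both control 1 and control 3. The log2 fold change was 0.09, and the 95% interval ran from -0.20 to 0.39, which takes in no change. It overlaps the interval of ADAM22 (0.09 to 0.70). In RefSeq's table of Sscrofa11.1 the span of ADORA1 shares 3461 bp with MYBPH, a myosin-binding protein gene of skeletal muscle with 627 ± 63.7 CPM in controls and 584 ± 166 CPM in parthenotes (SD, n = 3 each). The library kit does not mark the strand, so reads from the shared part cannot be assigned to either gene by strand, and their share of the ADORA1 count was not tested.

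CACNA2D1 encodes the alpha2delta-1 subunit, which brings voltage-gated calcium channels to the membrane in neurons and also in skeletal muscle and heart. It had 1018, 1096 and 1093 CPM in the controls and 996, 1056 and 1119 CPM in the parthenotes. The highest and the lowest of the 6 values were both from parthenotes. The log2 fold change was -0.02 ± 0.08 (SE). Its 95% interval of -0.20 to 0.17 lies below the whole interval of MAP6 (0.34 to 0.76), PLEKHB1 (0.35 to 0.73), FEZ1 (0.30 to 0.68) and AMPH (0.24 to 0.70), a comparison given without a test because the genes were chosen on these values. CACNA2D1 was the only gene of the 9 whose log2 fold change was below 0.

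The 6 genes whose groups were apart are those whose libraries did not overlap. A spread that is small next to the difference follows from that choice. Over the 9 genes the coefficient of variation between libraries ran from 0.938% (AMPH) to 11.6% (ADAM22) in controls and from 3.08% (AMPH) to 16.7% (ADAM22) in parthenotes. The median over tested genes with at least 100 CPM was 9.01% in controls and 8.56% in parthenotes. GRIK4, among the 6 genes whose groups were apart, had 10.4% in controls, above that median. For AMPH, GRIA4 and MAP6 the controls differed by less than counting error alone would give on average, 0.938% against 4.75%, 3.32% against 6.17% and 3.04% against 3.69%. The SD of those 3 control groups is therefore a low estimate of the error, and the SE from edgeR, which pools the spread over genes, is the larger one.

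Titles of both groups carry the numbers 1, 2 and 3. Over all tested genes, libraries of the same number deviated together weakly from their group means (r = 0.330, 0.263 and 0.142). Libraries of unlike number reached 0.110, for control 3 and parthenote 2. In numbers 1 and 2, FEZ1, PLEKHB1, AMPH and ADORA1 deviated in opposite directions in the 2 groups. MAP6 did so in number 1 only, and ADAM22, GRIA4, GRIK4 and CACNA2D1 in neither. Within each number, the log2 ratio of parthenote over control was above 0 in 3 of 3 pairs for MAP6, FEZ1, PLEKHB1, AMPH, ADAM22, GRIA4 and GRIK4. For all of these but ADAM22 the groups did not overlap, so any pairing of the libraries would give this result. The ratios of AMPH lay closest together, at 0.45, 0.52 and 0.44 for number 1, 2 and 3. FEZ1 and PLEKHB1 had their smallest ratio in number 1, at 0.36 and 0.41, and their largest in number 2, at 0.63 and 0.65. GRIK4 differed from these, with 0.61 in number 1 and 0.34 in number 3. ADORA1 ranged from -0.10 to 0.30 and CACNA2D1 from -0.05 to 0.03.

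**Figure D2:**
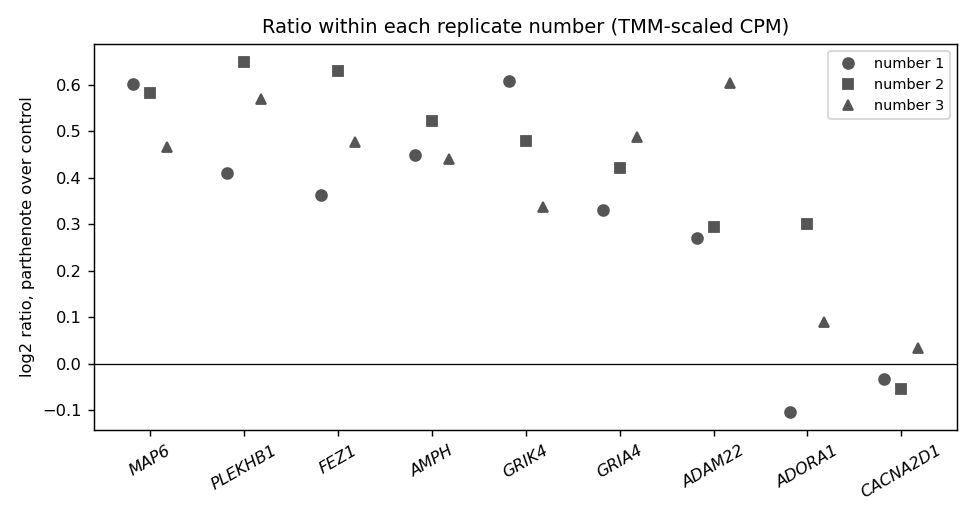
Log2 ratio of parthenote over control within each replicate number (vertical axis, TMM-scaled CPM) for the 9 measured genes, ordered by fold change; shapes mark the numbers 1, 2 and 3. All 3 ratios are above 0 for the 7 genes on the left, and they lie on both sides of 0 for ADORA1 and CACNA2D1. For all 7 but ADAM22 any pairing of the libraries would give this, since the groups do not overlap.

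How the libraries were scaled changed the calls of MAP6 and AMPH and not their direction. With library totals as the only scaling, which leaves the very abundant gene in the total, control 1 dropped relative to the other controls. MAP6 then stood at 501, 626 and 591 CPM in the controls and at 799, 907 and 785 CPM in the parthenotes. AMPH stood at 315, 365 and 354 CPM against 452, 508 and 463 CPM. Neither pair of groups overlapped, and edgeR's adjusted p was 0.0515 for MAP6 and 0.0948 for AMPH. The SD was 64.5 CPM in controls and 67.0 CPM in parthenotes for MAP6, and 26.5 and 29.8 CPM for AMPH. Over all alternatives the adjusted p was 5.58e-05 to 0.0515 for MAP6 and 0.00271 to 0.131 for AMPH. In the authors' deposited normalized values, the groups were apart for the same number of genes, 6 of 9, and the ratio of the means was 1.49 for MAP6, 1.42 for FEZ1, 1.48 for PLEKHB1 and 1.41 for AMPH.

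Leaving out 1 library ended some calls. MAP6 missed the threshold without control 3 (edgeR adjusted p = 0.0505), and FEZ1 without control 2 (0.0761) or control 3 (0.0699). Over its alternatives the adjusted p of FEZ1 was 3.12e-04 to 0.0761. AMPH missed it without control 2 (0.131), control 3 (0.123), parthenote 2 (0.112) or parthenote 3 (0.0906). The fold changes themselves moved little in these fits, from 0.51 to 0.58 for MAP6, 0.44 to 0.54 for FEZ1 and 0.45 to 0.48 for AMPH on the log2 scale.

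**Figure D3:**
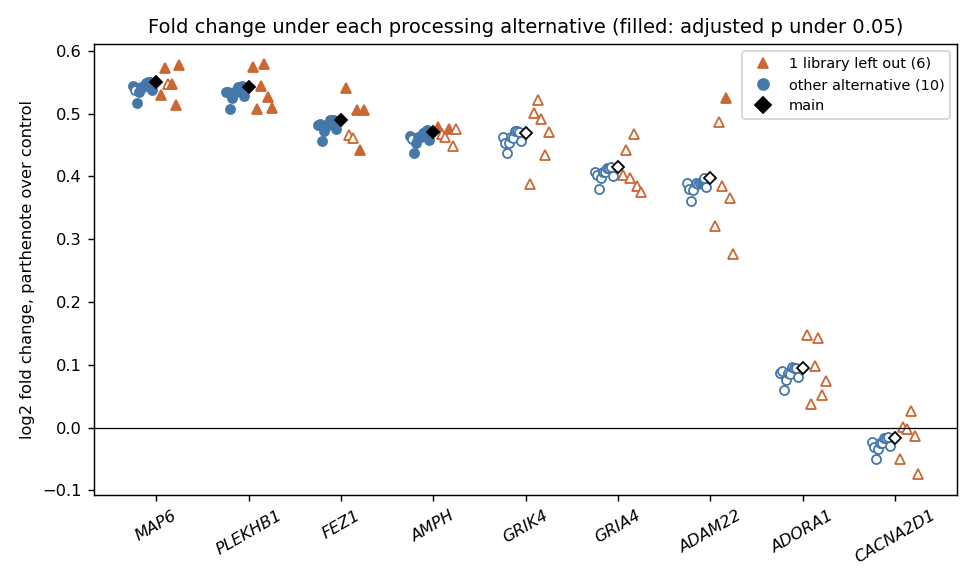
Log2 fold change of parthenote over control (vertical axis) for the 9 measured genes under the main setting (black diamonds), with 1 library left out (6 triangles a gene) and under the 10 other alternatives (circles); filled symbols have an adjusted p under 0.05. PLEKHB1 is filled throughout, and ADAM22 spreads most, from 0.28 to 0.52.

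Other neural genes of the chromosome were taken from 4 lists of cytoskeletal, synaptic, receptor and channel genes, drawn up with earlier results of these data known. Without the genes above, the lists held 307 genes, of which 24 had a row and 22 were tested. Of the 22, 0 were called higher and 1 lower in edgeR's test, beside 1.61% and 3.59% of all tested genes. DESeq2 and limma-voom also called 0 higher. At an unadjusted p under 0.05 it was 3 higher and 2 lower, beside 9.91% higher and 21.7% in either direction over all tested genes. The log2 fold change was above 0 for 18 of 22, beside 52.4% of all tested genes, with a median of 0.23 beside 0.02. All parthenotes lay above all controls for 6 of 22 and below them for 2 of 22, beside 13.8% and 14.3% of all tested genes. The gene called lower was KCNJ5, which encodes a subunit of G protein-gated potassium channels known from the heart and adrenal gland. It had 109, 186 and 140 CPM in the controls and 55.1, 78.0 and 70.0 CPM in the parthenotes, or -1.09 ± 0.23 on the log2 scale (SE, edgeR adjusted p = 0.0261). KCNJ5 no longer passed when control 2 (0.118), control 3 (0.0654), parthenote 1 (0.0569) or parthenote 3 (0.0760) was left out or with library totals (0.0687), and its adjusted p ran from 4.69e-04 to 0.118. KCNJ5 lies 24015 bp from KCNJ1, a potassium channel gene of kidney tubules that fell by 2.81 on the log2 scale.

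By role, the cytoskeleton and transport list had 3 further tested genes, all above 0. DYNC2H1, the heavy chain of the dynein motor of cilia, had a log2 fold change of 0.34 ± 0.12 (SE), DYNC1I1, an intermediate chain of cytoplasmic dynein, one of 0.21 ± 0.14, and PAFAH1B2, a subunit of a platelet-activating factor hydrolase, one of 0.11 ± 0.09. The synaptic list had 5, with 4 above 0. They ran from -0.10 ± 0.08 for BACE1, the beta-secretase, to 0.30 ± 0.19 for PPP1R9A, the spine protein neurabin, with 0.25 ± 0.14 for DLG2, a scaffold of the postsynaptic density. None of these 8 genes was called.

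Of 7 further receptor genes, 5 lay above 0. GRM5, a metabotropic glutamate receptor gene, had 22.9, 27.5 and 26.4 CPM in the controls and 35.2, 52.5 and 49.8 CPM in the parthenotes. The groups did not overlap, but the difference of 0.84 ± 0.25 (SE) on the log2 scale did not pass (edgeR adjusted p = 0.0946). P2RY2, a nucleotide receptor gene, had the lowest value of the list, -0.56 ± 0.24. DRD2, the dopamine D2 receptor gene, had 0.36 ± 0.17.

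The channel list had 7 further tested genes, 6 of them above 0. KCNH1, a voltage-gated potassium channel gene, had 17.3, 19.6 and 15.1 CPM in the controls and 22.9, 38.3 and 30.3 CPM in the parthenotes. Its log2 fold change was 0.81 ± 0.30 (SE, edgeR adjusted p = 0.162). CACNA1E, the pore subunit of R-type calcium channels, with which alpha2delta subunits can assemble, had 0.40 ± 0.23. SCN2B, a sodium channel beta subunit gene like the unmeasured SCN3B, had only 135 reads over the 6 libraries and differed by 0.20 on the log2 scale, with -0.54 to 0.94 as its 95% interval.

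**Figure D4:**
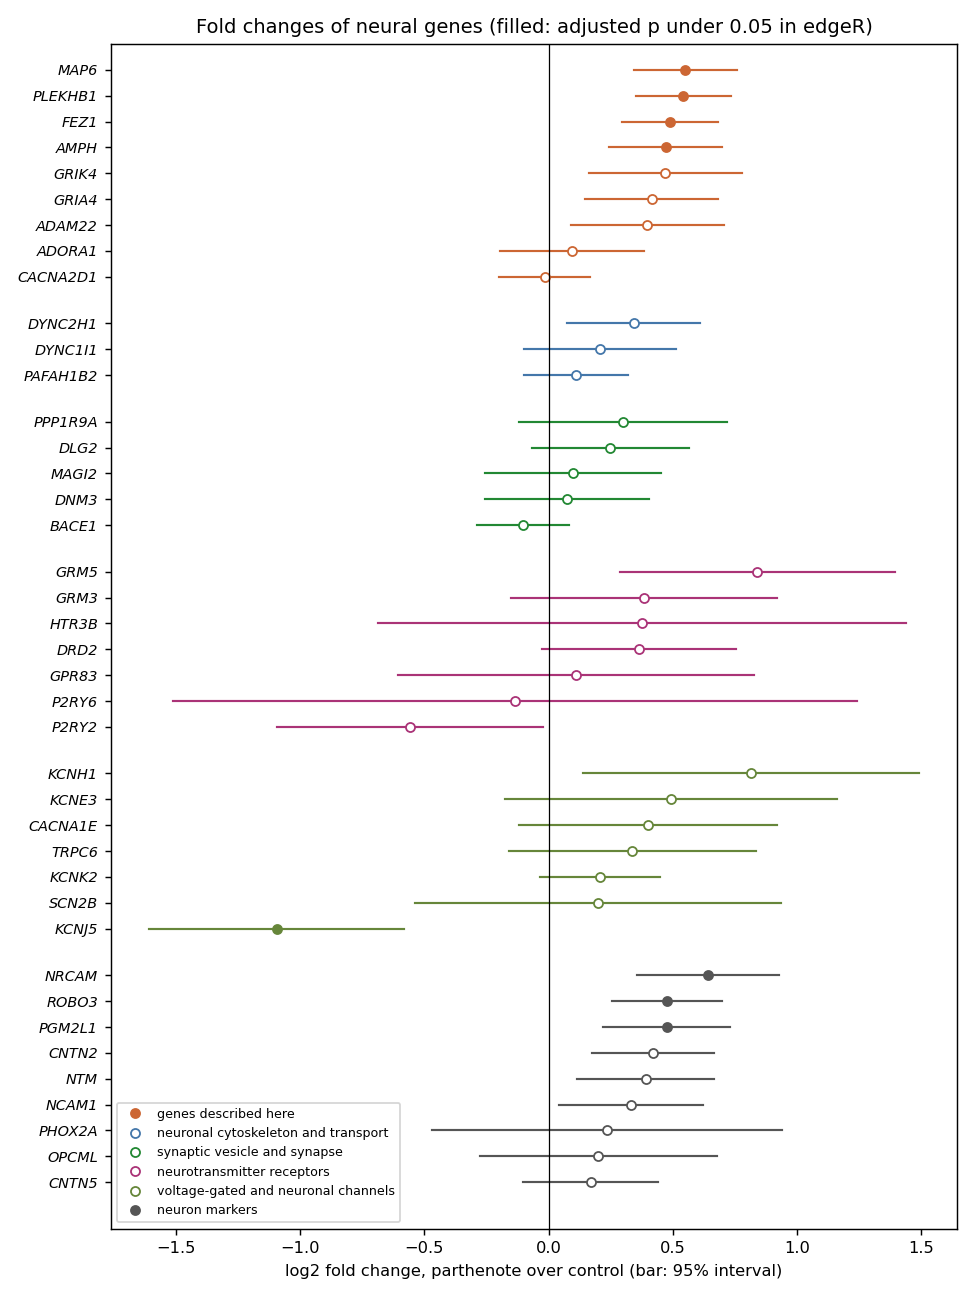
Log2 fold change of parthenote over control with its 95% interval (horizontal axis) for the 9 measured genes, the 22 other tested genes of the 4 neural lists and 9 neuron markers; filled symbols have an adjusted p under 0.05 in edgeR's test. Most symbols lie right of 0, and KCNJ5 is the filled symbol on the left.

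Markers of some cell types differed between the groups as well, and those of others did not. Of 41 neuron markers, 9 were tested, 9 lay above 0 and 3 were called higher, which were NRCAM (0.64 ± 0.13, SE), ROBO3 (0.48 ± 0.10) and PGM2L1 (0.47 ± 0.11). Over all tested genes 52.4% lay above 0 and 1.61% were called higher. DESeq2 called the 3 neuron markers and CNTN2, and limma-voom called NRCAM and ROBO3. With library totals none of the 3 passed (edgeR adjusted p = 0.0948 for NRCAM, 0.0973 for ROBO3 and 0.209 for PGM2L1). Leaving out control 2, parthenote 2 or parthenote 3 ended all 3 calls in edgeR. Without control 3 the calls of ROBO3 and PGM2L1 also ended, and without control 1 that of PGM2L1. The summed level of the neuron markers was 9221 to 11020 CPM in controls and 12779 to 14282 CPM in parthenotes, and none was at 0. Most of this sum was NCAM1, with means of 5557 CPM in controls and 6996 CPM in parthenotes, and CNTN2, with 2079 and 2782 CPM. Neither was called in edgeR (adjusted p = 0.170 and 0.0649). The neuron marker list also was drawn up with these results known. Skeletal muscle markers, which bear on ADORA1 and CACNA2D1, had 3 of 23 tested (MYOG, MYBPH and CRYAB) and 0 called, with 1745 to 1882 CPM in controls and 1690 to 2112 CPM in parthenotes; at an unadjusted p under 0.05, 0 were higher and 1 lower in edgeR's test, and DESeq2 and limma-voom called 0. The heart list had 1 of 18 tested, SLN, at 29.0 to 35.5 CPM in controls and 25.2 to 26.9 CPM in parthenotes. Of the endothelial list 4 of 15 were tested, with 4482 to 4878 CPM in controls and 4355 to 4610 CPM in parthenotes, and 0 were called in edgeR or limma-voom, with 0 higher and 1 lower at an unadjusted p under 0.05 in edgeR. DESeq2 called 1 of them lower, ESAM (adjusted p = 0.0165). ETS1, its most abundant gene, had a log2 fold change of -0.01 ± 0.09 (SE). The others, given for completeness, were ESAM at -0.42 ± 0.11, FLI1 at -0.16 ± 0.09 and ROBO4 at 0.14 ± 0.12, and all parthenotes lay below all controls for ESAM and FLI1. The red cell list had HBB alone, at 873 to 2065 CPM in controls and 102 to 575 CPM in parthenotes. The log2 fold change of HBB was -2.30 ± 0.78 (SE). It was not called in edgeR (adjusted p = 0.189), while DESeq2 and limma-voom called it lower. In the liver and yolk sac list, with 3 of 18 tested, APOC3 was called higher. The call ended in edgeR without control 1 (adjusted p = 0.0609), control 2 (0.0730) or control 3 (0.0567). The sums of the list were 29039 to 33808 CPM in controls and 26128 to 51368 CPM in parthenotes. Most of them was APOA1, which was not called, with means of 30120 CPM in controls and 32431 CPM in parthenotes. Of 3 immune markers CD3D had no read, and CD3E, IL10 and the uterine marker PGR had too few to test. Of 25 neural progenitor markers and 18 markers of glia and Schwann cells, 0 had a row in the count table, so these cell types could not be assessed. What part a different makeup of cell types has in the neuronal values was not tested.

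The genes are spread along chromosome 9. In RefSeq's table of Sscrofa11.1, PLEKHB1 lies at 8103497 to 8117819, MAP6 at 9810923 to 9937651, GRIA4 at 35442060 to 35803989, GRIK4 at 47639987 to 48095803 and FEZ1 at 52621175 to 52672660. ADAM22 lies at 68253023 to 68490327, CACNA2D1 at 97781057 to 98265925, AMPH at 108800718 to 108971575 and ADORA1 at 113835279 to 113875899. Neighbours were sought among tested genes with a symbol. The nearest on each side, 18 genes in all at distances of 1907 to 839982 bp, had a median log2 fold change of 0.01, with 10 above 0 and 8 below. Among these 18 only DGAT2 was called in edgeR, a triglyceride synthesis gene beside MAP6 that was lower (-0.70 ± 0.14, SE, adjusted p = 0.0242). The other neighbour of MAP6, the collagen chaperone gene SERPINH1, had -0.06 ± 0.10. PKNOX2 and EI24 beside FEZ1 had 0.09 ± 0.09 and -0.33 ± 0.15, and FAM168A and RAB6A beside PLEKHB1 had 0.13 ± 0.12 and 0.02 ± 0.09.

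The profile over the 6 libraries was compared between each gene and 656 other tested genes with a symbol and at least 5 CPM, as a description, since the difference between the groups and the shared libraries enter every such value. AMPH was most like ASNS, the asparagine synthetase gene (Pearson r = 0.996, Spearman rho = 0.829, 6 libraries), and then MAP6 (r = 0.991, rho = 0.829). MAP6 was most like AMPH and then ROBO3 (r = 0.988, rho = 0.886), an axon guidance receptor gene. FEZ1 was most like BUD13 (r = 0.993, rho = 0.943) and STX6 (r = 0.986, rho = 0.943), a syntaxin gene, and PLEKHB1 like STX6 (r = 0.982, rho = 0.943) and AMPH (r = 0.980, rho = 0.886). GRIA4 was most like GRM5 (r = 0.980, rho = 0.943), and GRIK4 like PTPN12 (r = 0.991, rho = 0.943). The genes whose groups overlapped had other partners. ADAM22 was most like SWT1 (r = 0.983, rho = 0.943), ADORA1 like SEMA3A (r = 0.958, rho = 0.943) and CACNA2D1 like ANKRD42 (r = 0.980, rho = 1). Next in likeness came STX6 for GRIA4 (r = 0.977), XPR1 for GRIK4 (r = 0.981), DMTF1 for ADAM22 (r = 0.959), TMEM196 for ADORA1 (r = 0.939) and ARHGAP42 for CACNA2D1 (r = 0.958).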

How the data were processed

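Per the labels' protocols, total RNA of whole embryos was treated with DNase, and the libraries came from the TruSeq RNA v2 kit, which keeps no strand information. The submitters' processing notes name HISAT2 2.1.0, SAMtools 1.9 and the build Sscrofa11.1, and the counting tool is not named in the sources used here. Raw read counts per gene were deposited by the authors as 1 table of 1780 rows, 779 of them with a symbol. The authors' deposited normalized signal values are whole reads times a factor per library (100% of values within 0.01 of a whole read).

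The main test was run in R 4.3.3 with edgeR 4.0.16: filterByExpr (minimum count 10, minimum total 15), TMM, a robust quasi-likelihood fit with group as the only term, Benjamini-Hochberg adjustment over 807 genes, threshold 0.05. SE and 95% intervals come from that fit. A floor of 3 counts was 2.02 to 2.51 CPM in a library total, for counting error only. The 16 alternatives were 3 scalings, 2 filters, DESeq2 1.42.0, limma-voom (limma 3.58.1), the replicate number as a block, recovered reads, a fit without the most abundant gene, and each of 6 libraries left out. The method was tested on simulated data. No libraries of a group agreed within sampling noise (chi-square per degree of freedom, 6.98 to 143).

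The main fit left the replicate numbers out, and 1 alternative entered them as a block. They were tried as a pairing because deviations from group means correlated at 0.330, 0.263 and 0.142 between samples numbered 1, 2 and 3. The highest value between unlike numbers was 0.110, and the pairing comes from the data, not the labels. The genes, lists and alternatives were chosen with earlier results of these data known. Named genes were the 10 chosen genes, called genes of each list or its most abundant tested gene, nearest tested neighbours, overlapping genes, and the 2 genes most alike in profile; further list genes were named after their values were seen, and 1 marker list is not reported here. Symbols were matched through the gene name table, and positions by symbol to RefSeq's Sscrofa11.1 table. A tested gene without a symbol could therefore not be a neighbour.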

Additional observations from a re-analysis of the deposited data

How the results depend on the processing

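Of the 9 genes, 4 were called in the main setting, 2 with library totals as the only scaling, and 1 to 5 with 1 library left out (2 without control 2, 1 without control 3). With the replicate number as a block it was 5 of the 9 genes, 55 of all genes and 1 of the other neural genes, and the block ended no call of the 9. Of all tested genes 42 were called (13 higher, 29 lower), 67 in DESeq2 (20 higher, 47 lower), 32 with library totals (5 higher, 27 lower) and 17 to 55 with 1 library left out (17 and 18 when control 2 or 3 was omitted, 26 and 22 when parthenote 2 or 3 was). The cause was not tested. Of the other neural genes 1 was called; with library totals it was 0 in edgeR (3 at an unadjusted p under 0.05, and 1 in DESeq2 and in limma-voom with their own scaling), and with 1 library left out 0 to 2. The 2 without parthenote 1 were DYNC2H1 and GRM5. CACNA2D1, not called anywhere, lay at -0.02 on the log2 scale, at 0.0018 without control 2 and 0.026 without parthenote 1, and between -0.075 and 0.026 with any library left out. The other 8 genes stayed above 0 under the 16 alternatives. No scaling moved the median log2 fold change of all genes beyond -0.02 to 0.02. The 9 genes had 147 to 2516 counts a library, and for ADORA1 the 95% interval, -0.20 to 0.39, gives the range of differences that 3 embryos a group leave possible.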

Other observations

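SCN3B had no row, but genes with a symbol on either side of its RefSeq position were tested. GRAMD1B, which encodes a cholesterol transfer protein and ends 865 bp from SCN3B, had 742, 902 and 1000.4 CPM in the controls and 436, 407 and 417 CPM in the parthenotes. It was called lower, with a log2 fold change of -1.07 ± 0.12 (SE, adjusted p = 7.77e-04 in edgeR's test). ZNF202, a zinc finger gene 51157 bp away on the other side, had a log2 fold change of 0.15 ± 0.13 and was not called. GRAMD1B was named because of its place beside SCN3B.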
